A study of Gallus gallus with 3 samples.

Results

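The genes described here are 31 members of the extracellular matrix and remodelling families: collagens, laminins, fibronectin, SPARC and thrombospondin, integrins and their binding proteins, and the proteases and inhibitors that turn matrix over. They were taken from the study's supplementary gene tables by symbol. A gene was kept when its symbol read COL, a number, A and a number, or began with LAMA, LAMB, LAMC, FBN, FBLN, ITGA, ITGB, MMP, TIMP, ADAMTS, THBS, SPARC, POSTN, TNC or FN1, and when it lay on none of the co-expression module sheets held here, which are not the full set, so that a member may lie on a module sheet that was not seen. Of the 3142 genes with a symbol there, 48 fitted the pattern, and 17 of these were left out, either as module genes or by name (COL9A1, COL9A3, COL1A2, COL17A1 and LAMB4). The 31 genes stand among 11442 genes in the deposited tables. All 31 were in the HH29 and HH31 tables and 30 in the HH25 table, where TIMP4 was not analysed here. The supplementary tables name genes that the study called enriched in a sub-cluster of these same cells, so that each member differs somewhere is fixed by the choice, and the counts below describe the pattern without testing it.

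Single cells were taken from the developing hindlimb of chicken (Gallus gallus) embryos at Hamburger-Hamilton stages HH25, HH29 and HH31, with 1 library per stage and no strain, genotype or treatment given in the labels. The HH25 cells came from the whole autopod and were run on the 10X Chromium v2 platform. The HH29 cells came from digits 3 and 4 with the interdigit tissue beside them and were run as Drop-Seq in 3 technical replicates, and the HH31 cells came from the tip of digit 4 and were again run on 10X v2. Stage, dissection and, for HH29, platform therefore change together and cannot be told apart.

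Cartilage, connective tissue and skin each build a matrix of their own. Chondrocytes lay down fibrils of type II collagen that carry type IX and type XI collagen, loose and dense connective tissues use type III, V, VI and XII collagens, and epithelia, muscle and vessels sit on basement membranes of type IV collagen and laminin. Integrins, heterodimers of an alpha and a beta chain, anchor cells to these ligands, while metalloproteinases cut the matrix and TIMP proteins hold them back.

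After the study's limits on UMIs (unique molecular identifiers, counted transcripts) and mitochondrial share, 5938, 6806 and 4796 cells were left at HH25, HH29 and HH31, with medians of 2046, 2946 and 2481.5 UMIs per cell and 13778575, 23846769 and 13281515 UMIs in all. The members other than ITGB1BP3 held 0.112%, 0.301% and 0.225% of these UMIs. Populations are the deposited fine clusters, called sub-clusters here, of which there were 8, 18 and 11. They were named after the study's scheme and checked against marker lists: 2 to 6 genes of each list had values, apart from muscle, where none could be named and the label could not be checked, and no list was set for joint or for early against late chondrocytes. Skeletal, ectoderm, apical ridge, leukocyte, endothelium and smooth muscle genes were over 2-fold above the rest in the population of that name, except SOX9 at HH25. The nsCT name, non-skeletal connective tissue, rested on 3 of 5 markers at HH25 and HH31 and on 5 of 5 at HH29, and the mesenchyme markers exceeded 2-fold over the rest in 2, 1 and 0 of 4. Distal mesenchyme passed for 4 of 4 markers at HH25 and HH29 and 3 of 4 at HH31, while the interdigit name rested on 3 (HH29) and 2 (HH31) of its 4 markers. The sub-cluster 14 of HH29 and sub-cluster 6 of HH31 carry no name here. HH25 and HH31 shared 48 barcodes, 0.808% and 1.001% of their cells.

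Levels are UMIs summed over the cells of a population, scaled to counts per 1e6 UMIs of that population (CPM), with exact 95% Poisson intervals. A comparison is the log2 ratio of CPM, with an exact 95% interval from the split of the summed UMIs, and a gene was counted in it when at least 10 UMIs were expected in the smaller population. With 1 library per stage no test between conditions exists, and all intervals cover counting error only. At least 2-fold marks a difference large enough to count, and the share of all genes past it in the same direction is given beside each count of a single comparison.

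**Figure D1:**
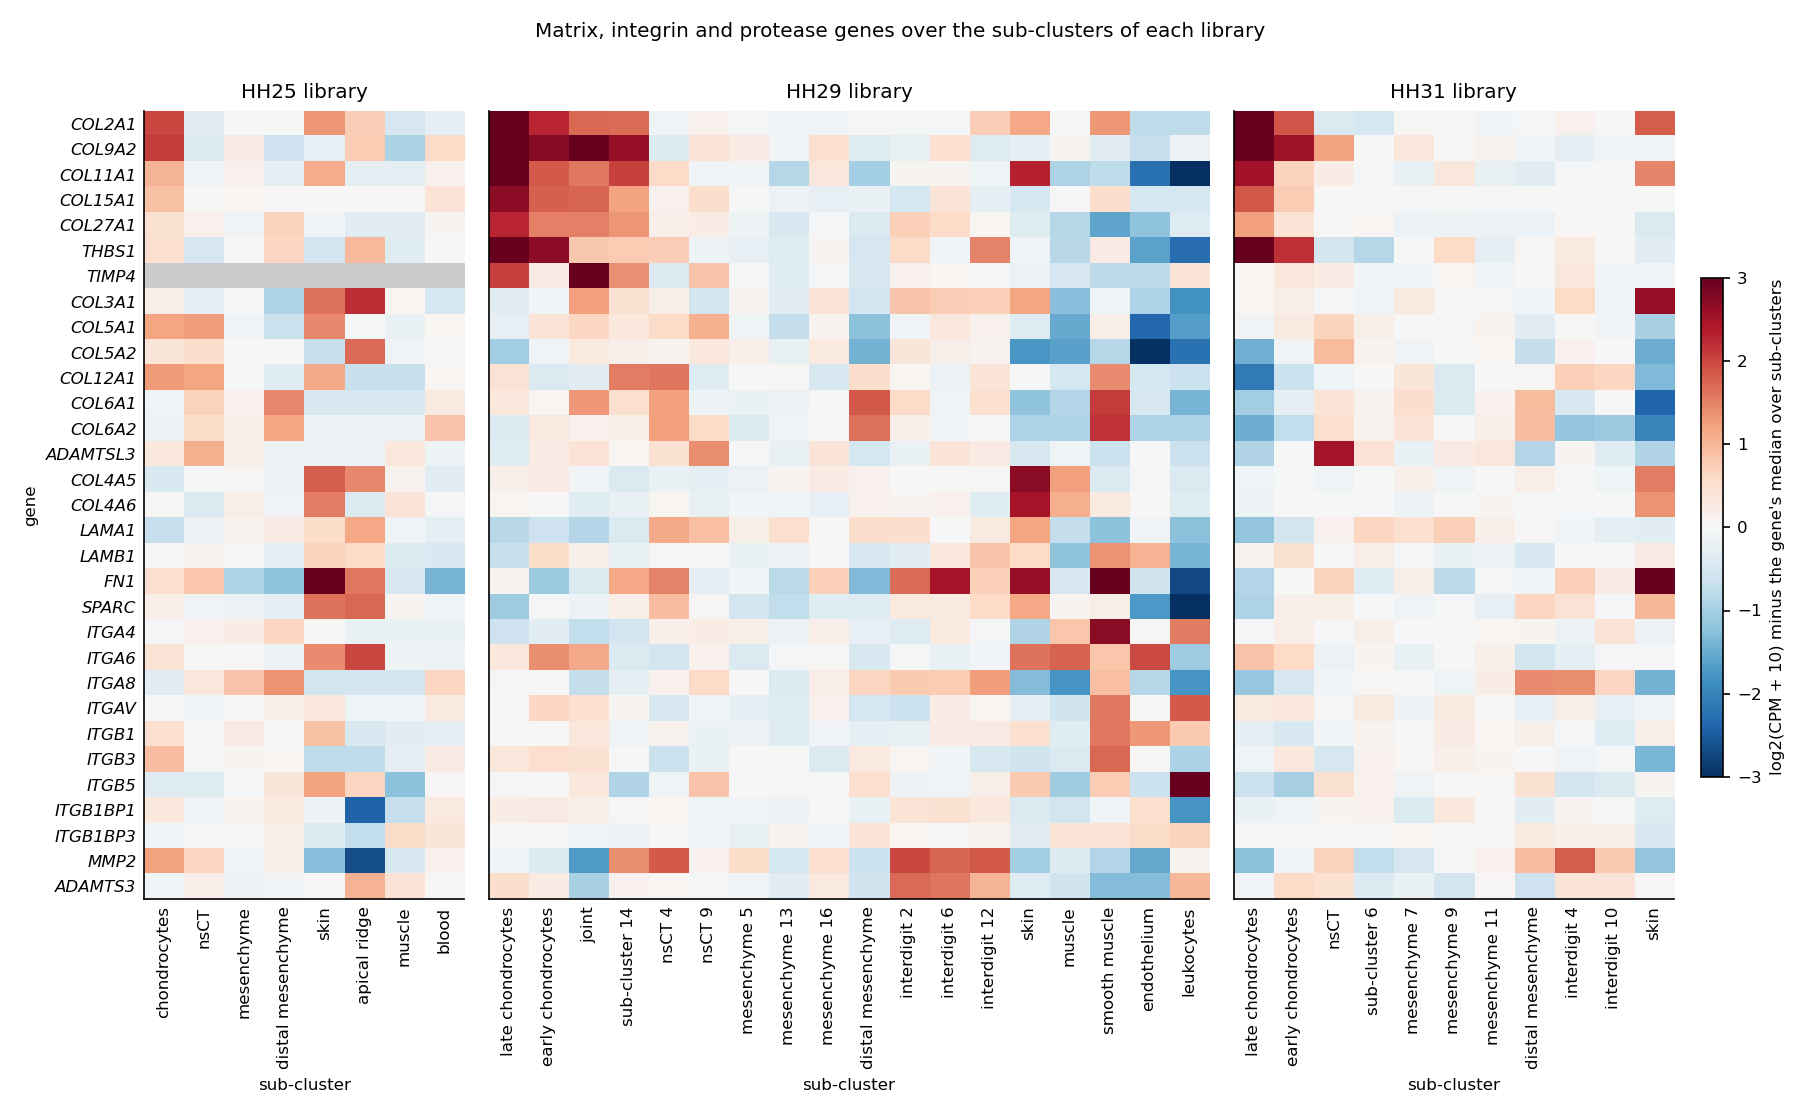
Level of each of the 31 genes (rows) in every sub-cluster (columns) of the 3 libraries, as log2(CPM + 10) minus the gene's own median over the sub-clusters of that library; grey marks TIMP4 at HH25, not analysed here. COL2A1 and COL9A2 are highest in chondrocytes in each library, and COL11A1, COL15A1, COL27A1 and THBS1 in late chondrocytes at HH29 and HH31. FN1, COL4A5 and COL4A6 are high in skin.

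The highest levels of the members were spread over many populations (the map of levels over sub-clusters). At HH29, 6 of 31 peaked in late chondrocytes, 7 in smooth muscle, 4 in skin, 4 in an interdigit sub-cluster and 3 in nsCT, with the rest in endothelium, joint and leukocytes. At HH31, 7 of 31 peaked in late chondrocytes, 5 in skin, 5 in early chondrocytes, 4 in nsCT, 4 in distal mesenchyme, 3 in an interdigit and 3 in a mesenchyme sub-cluster. The interval of the highest sub-cluster lay clear of the second for all 6 late-chondrocyte members at HH29 and for 6 of 7 at HH31 (not ITGA6). It did so for all 5 skin members at HH31 (COL3A1, COL4A5, COL4A6, FN1 and SPARC). At HH29 it lay clear for 3 of 4 skin, 2 of 3 nsCT, 1 of 7 smooth muscle and 0 of 4 interdigit members. At HH31 it lay clear for 3 of 4 nsCT, 2 of 4 distal mesenchyme, 1 of 3 interdigit, 0 of 5 early chondrocyte and 0 of 3 mesenchyme members. The share of all genes that peaked in each place is not given here. At HH25 only 5 of 30 members had a top sub-cluster clear of the second, among them COL2A1 and MMP2 in chondrocytes and FN1 in skin.

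The fibril-forming and fibril-decorating collagens of cartilage separated skeletal cells from mesenchyme in each library. COL2A1, the main fibrillar collagen of cartilage, stood at 181 CPM in HH25 chondrocytes against 38.1 CPM in mesenchyme. At HH29 its level was 172 CPM over the skeletal cells against 5.85 CPM, and at HH31 it was 922 CPM against 54.8 CPM. The log2 ratios were 2.25 (interval 2.03 to 2.47), 4.88 (4.43 to 5.37) and 4.07 (3.87 to 4.28), and the 3 technical replicates of HH29 gave 5.43, 4.71 and 4.37. COL9A2, a chain of the type IX collagen that coats these fibrils, followed with 2.27 (1.98 to 2.56), 3.88 (3.63 to 4.15) and 3.90 (3.66 to 4.15). COL11A1, a chain of the type XI collagen in the fibril core, gave 2.11 (1.32 to 2.89), 3.90 (3.76 to 4.03) and 3.12 (2.35 to 3.98). For these 3 genes the skeletal level was at least 4-fold above mesenchyme at each stage.

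Over the whole set, 8 of 19 counted members were at least 2-fold higher in skeletal cells than in mesenchyme at HH25 and 2 were lower, where 3.87% and 7.11% of all genes passed these marks. At HH29 the counts were 8 and 2 of 30, beside 6.96% and 4.81% of all genes, and at HH31 they were 8 and 4 of 26, beside 4.25% and 11% of all genes. The median log2 ratio of the counted members was 0.40, 0.30 and -0.03, against -0.17, -0.04 and -0.28 over all genes. The lists differed in their tails. At HH25 COL12A1, MMP2, FN1, ITGB3 and COL5A1 joined the 3 cartilage collagens on the higher side. At HH29 and HH31 the additions were COL15A1, COL27A1, THBS1 and ITGA6, with TIMP4 at HH29 and ADAMTS3 at HH31. Of these additions only THBS1 was counted at HH25, so that the lists differ in part through the count limit. TIMP4 was under that limit at HH31. LAMA1, a laminin alpha chain, was the one member at least 2-fold lower in skeletal cells at all 3 stages, with log2 ratios of -1.49, -2.20 and -2.32.

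**Figure D2:**
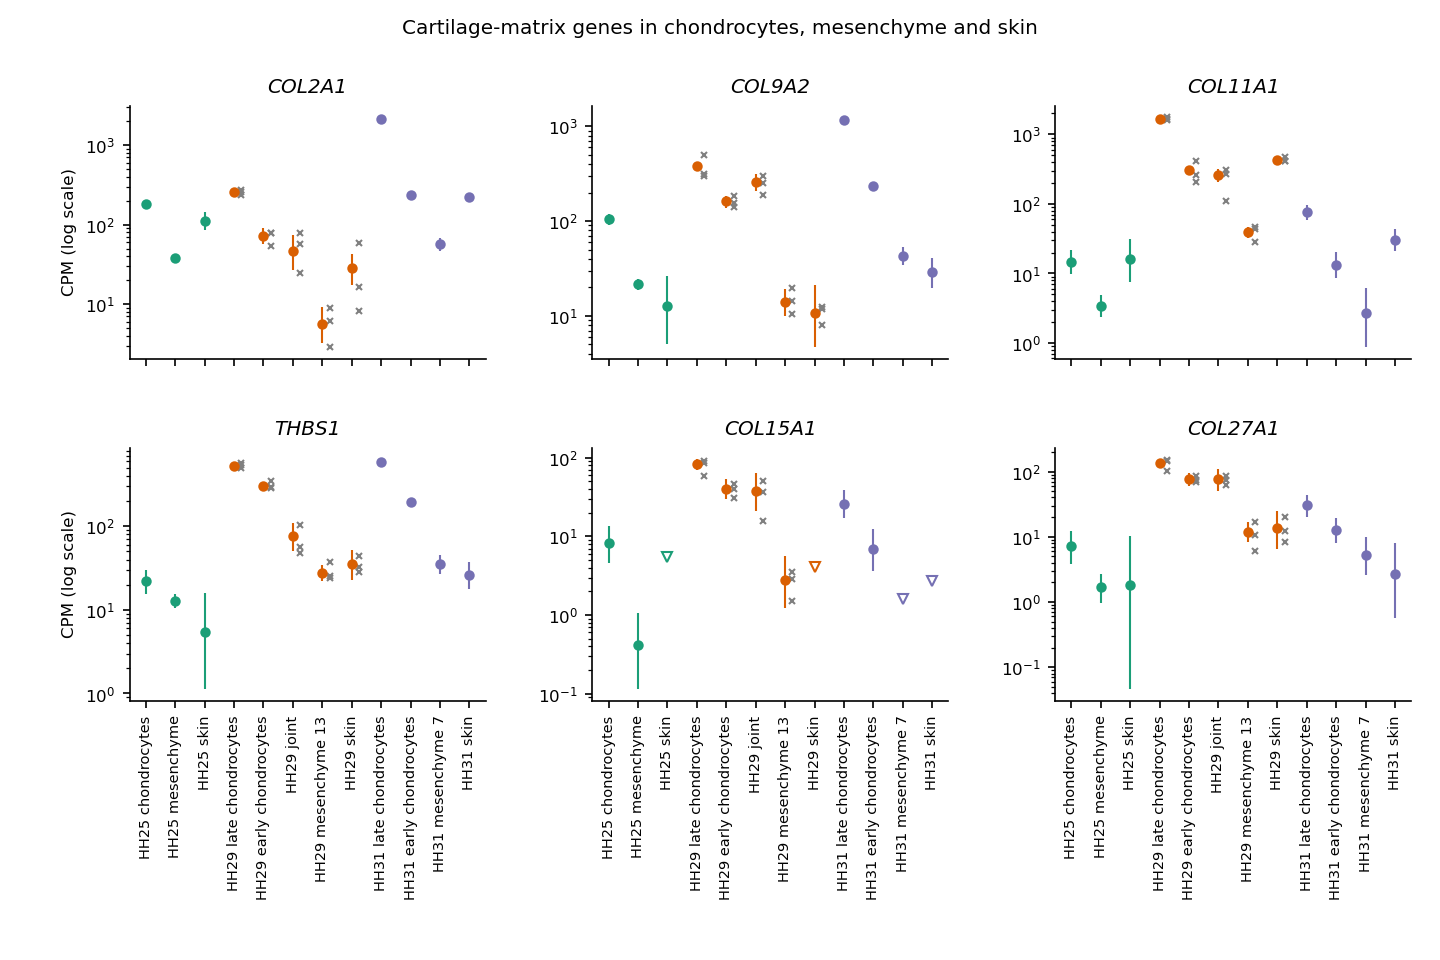
CPM (log scale) of 6 genes in chondrocyte, joint, mesenchyme and skin sub-clusters; colours mark the library, bars the exact 95% Poisson interval, grey crosses the HH29 technical replicates above 0, and open triangles the level of 3 UMIs where none was counted. COL2A1 reaches 2156 CPM in HH31 late chondrocytes and 220.5 CPM in HH31 skin, whereas COL15A1 has no UMI in skin.

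Within the skeletal cells these genes were graded (the plot of cartilage genes by sub-cluster). In HH31 late chondrocytes COL2A1 reached 2156 CPM against 233 CPM in early chondrocytes, a log2 ratio of 3.21 (3.05 to 3.37), and a COL2A1 UMI was found in 94.3% of late and 35.45% of early chondrocytes, against 13.4% of the cells of mesenchyme sub-cluster 7 and 38.4% of skin cells, at median depths of 2354, 2413, 2553 and 2552 UMIs. With each cell thinned to 1000 UMIs the shares were 77.9%, 17.96%, 6.175% and 16.6%. At HH29 the step was smaller, from 72.7 CPM in early to 259 CPM in late chondrocytes (1.83, interval 1.5 to 2.19, replicates 1.80, 1.74 and 2.11). The level in late chondrocytes was 44.4-fold above mesenchyme at HH29 and 39.3-fold at HH31, with overlapping intervals (5.01 to 5.96 and 5.09 to 5.51 on the log2 scale).

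The level of COL11A1 in late chondrocytes was 1662 CPM at HH29 and 75.3 CPM at HH31, while COL2A1 stood at 259 and 2156 CPM. Within each library, however, COL11A1 was likewise steeply graded, by 5.36-fold from early to late chondrocytes at HH29 and by 5.61-fold at HH31. Levels of one gene are for this reason compared only within a library or between the 10X libraries.

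Between late and early chondrocytes 7 of 25 counted members were at least 2-fold higher and 3 lower at HH29, beside 5.87% and 4.88% of all genes. At HH31 the counts were 6 and 7 of 23, beside 4.53% and 5.75%. COL2A1, COL9A2, COL11A1 and COL15A1 were on the higher side at both stages, and SPARC, a collagen-binding matricellular protein, was on the lower side at both (log2 ratios -1.06 and -1.14). Fibronectin (FN1) and COL12A1 lay on opposite sides at the 2 stages, a difference that was not tested. FN1 was 2.91-fold higher in late than in early chondrocytes at HH29 and 2.43-fold lower at HH31, with replicates of 1.08, 1.64 and 3.58 on the log2 scale at HH29. COL12A1, a fibril-associated collagen of dense connective tissue, gave 1.22 (0.48 to 2.04) at HH29 and -2.62 (-4.30 to -1.31) at HH31. Early chondrocytes of HH31 also carried more COL5A2 and MMP2 than late ones, by 2.83-fold and 2.71-fold.

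Of COL15A1, COL27A1 and THBS1, the other genes that peaked in late chondrocytes at HH29, COL15A1 had the fewest UMIs in each library. COL15A1, a collagen of basement membrane zones, had 25 UMIs in late and 12 in early chondrocytes at HH31 and 0 in each of the other 9 sub-clusters, so that its skeletal level was at least 18-fold above mesenchyme, taking 3 UMIs as the floor for the mesenchyme. At HH29 it stood at 82.1 CPM in late chondrocytes, 40.3 CPM in early chondrocytes and 38.2 CPM in joint cells against 3.06 CPM in mesenchyme. COL27A1, a fibrillar collagen of cartilage, was 6.97-fold and 3.55-fold higher in skeletal cells than in mesenchyme at HH29 and HH31. THBS1, thrombospondin-1, a secreted adhesive glycoprotein, stood at 532 CPM in late and 306 CPM in early chondrocytes at HH29 and at 587 and 196 CPM at HH31. At HH25 THBS1 was at 21.98 CPM in chondrocytes and 12.8 CPM in mesenchyme, under the 2-fold mark.

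The joint sub-cluster of HH29 (118 cells) shared some of these genes with the chondrocytes and differed in others. TIMP4, an inhibitor of metalloproteinases, was at 221 CPM in joint cells, with replicates of 244, 214 and 189 CPM, against 62.4 CPM in late and 10.51 CPM in early chondrocytes. Against the other skeletal cells TIMP4 was 5.21-fold higher (log2 2.38, interval 1.96 to 2.79), COL3A1 3.04-fold and COL6A1 2.61-fold, the last with replicates of 1.81, 1.25 and -0.24 on the log2 scale. THBS1, COL11A1, COL2A1 and MMP2 were lower in joint cells, by 5.83-fold, 4.46-fold, 4.05-fold and 3.09-fold. COL9A2 lay with the cartilage, at 259 CPM in joint cells against 384 and 161 CPM in late and early chondrocytes. In all 3 of 20 counted members were at least 2-fold higher and 4 lower, beside 4.43% of all genes in either direction. At HH31, where no sub-cluster is called joint here, TIMP4 had 15 UMIs in the whole library, 6 of them in early chondrocytes.

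Part of the cartilage set was also found in skin. COL2A1 was higher in ectoderm than in mesenchyme by 2.81-fold, 4.84-fold and 4.02-fold at HH25, HH29 and HH31, the HH29 replicates giving 1.93, 3.19 and 0.13 on the log2 scale. COL11A1 was higher by 6.15-fold at HH29 (replicates 2.70, 2.42 and 2.75) and by a log2 ratio of 2.91 (2.01 to 3.86) at HH31. The ectoderm of HH31 held 10.2% of the late-chondrocyte level of COL2A1 and 40.8% of that of COL11A1, but 2.45% for COL9A2, 2.41% for MATN4, a cartilage matrilin, and 0.0965% and 0.322% for COL9A1 and COL9A3, the other type IX chains (1 and 2 UMIs), with 0 UMIs of ACAN and MATN1. At HH29 the corresponding shares were 10.9%, 25.96%, 2.81%, 2.41%, 1.53% and 0.637%, with 1.66% for ACAN and 0.9% for MATN1. The HH25 ectoderm held 58.95% of the chondrocyte level of COL2A1, 99.8% of that of COL11A1 (9 UMIs) and 14.2% for COL9A2 (9 UMIs). Its shares of MATN4 and ACAN were 5.90% and 19.95% (4 and 2 UMIs), with 0 UMIs of COL9A1 and COL9A3. In HH25 blood cells COL2A1 stood at 29.6 CPM (9 UMIs, interval 13.5 to 56.1), beside 38.1 CPM in mesenchyme and 111 CPM in skin (84.7 to 142). The part of cell-free transcripts in these levels was not tested.

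Among the collagens of soft connective tissue, types V and III were both found in each sub-cluster of each library, and at HH31 they peaked in different places. COL5A1, a chain of the type V collagen that sets fibril diameter, was measured in each sub-cluster of each library, from 55.3 to 265 CPM at HH25, from 92.8 to 1086 CPM at HH29 and from 250.4 to 798 CPM at HH31. It peaked in nsCT at HH29 (sub-cluster 9) and HH31 and was lowest in endothelium and in skin, respectively. COL5A2, the partner chain, had its highest HH31 level in nsCT (332 CPM) and its lowest in skin (52.4 CPM). COL3A1, the fibrillar collagen of loose connective tissue, differed at HH31, where it was highest in skin, with 153 CPM against 30.5 CPM in the next sub-cluster. Its HH29 levels were highest in joint (180 CPM) and skin (174 CPM), with overlapping intervals, beside a sub-cluster median of 71.3 CPM. At HH25 COL3A1 stood at 78.04 CPM in skin and 122.6 CPM in the 24 apical ridge cells (7 UMIs) against 17.3 CPM in mesenchyme. COL5A1 had its own HH25 peak in skin (265 CPM), with an interval overlapping that of nsCT (231 CPM).

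In nsCT, 10 of 29 counted members were at least 2-fold above the mesenchyme at HH29 and none below, where 5.21% and 3.32% of all genes passed. At HH25 the counts were 3 and 1 of 16, beside 2.04% and 4.03%, and at HH31 they were 4 and 0 of 22, beside 2.59% and 8.94%. COL6A2, COL12A1, ADAMTSL3 and COL6A1 led at HH29, with ratios of 3.94-fold, 2.98-fold, 2.93-fold and 2.72-fold. The HH29 ratios pool sub-clusters 4 and 9. Of the higher members, COL12A1, FN1, COL6A1 and MMP2 were at least 2-fold higher in sub-cluster 4 than in 9, and ADAMTSL3 was higher in 9. The pooled ratios and count therefore need not hold for each sub-cluster, and neither was set against mesenchyme alone. The HH29 ratio of COL15A1 (2.48-fold) rested on 21 UMIs, and its replicates gave 2.52, 0.82 and -0.60 on the log2 scale. ADAMTSL3, a secreted relative of the ADAMTS proteases that lacks their catalytic domain, had the highest nsCT ratio at HH31, at 105 CPM against 11.8 CPM in mesenchyme (8.90-fold, log2 3.15, interval 2.62 to 3.70) and at most 17.8 CPM elsewhere. FN1, COL12A1 and COL5A1 were the members higher in nsCT at HH25, by 3.67-fold, 4.81-fold and 2.74-fold. COL9A2 was 2.17-fold lower in nsCT than in mesenchyme at HH25 (interval of the log2 ratio -2.35 to -0.11) and 2.28-fold higher at HH31 (0.76 to 1.60).

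The nsCT sub-clusters of HH29 differed from each other. Sub-cluster 4 had more COL12A1 than sub-cluster 9, 100.4 CPM (replicates 89.7, 110 and 102) against 17.6 CPM (17.02, 17.5 and 18.6), with no overlap between replicates. FN1, COL6A1, MMP2 and THBS1 were also at least 2-fold higher in sub-cluster 4, by 4.01-fold, 3.82-fold, 3.36-fold and 2.12-fold. ADAMTSL3, TIMP4, COL9A2 and ITGB5 were higher in sub-cluster 9. The ADAMTSL3 levels were 31.2 CPM in sub-cluster 9 (replicates 26.75, 45.1 and 13.97) and 11.5 CPM in sub-cluster 4 (13.5, 11.7 and 7.67), a ratio of 2.72-fold whose direction each replicate shared. In all 5 of 25 counted members were higher and 4 lower, beside 4.40% and 2.70% of all genes.

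Distal mesenchyme, the progenitor zone under the ridge, was high in type VI collagen, which forms beaded microfibrils around cells, exceeded at HH29 only by the 31 smooth muscle cells (102 and 75.3 CPM of COL6A1 and COL6A2, with overlapping intervals). At HH29 COL6A1 stood at 83.9 CPM there (replicates 99.1, 75.1 and 74.7) against 13.9 CPM in mesenchyme, and COL6A2 at 50.1 against 7.24 CPM, ratios of 6.03-fold and 6.92-fold. At HH31 both chains again peaked in distal mesenchyme, at 154 and 119 CPM, but the mesenchyme had 90.9 and 70.2 CPM and the ratio was 0.76 on the log2 scale for either chain. At HH25 the distal sub-cluster (152 cells) had 11 UMIs of COL6A1 and 6 of COL6A2, too few to be counted in the comparison. FN1, COL5A2, COL11A1, COL9A2 and COL5A1 were among 8 of 31 members at least 2-fold lower in distal mesenchyme at HH29, from 3.61-fold for FN1 to 2.05-fold for COL5A1, with 3 higher, beside 4.13% and 3.14% of all genes. At HH31 2 of 22 members were higher (ITGA8 and MMP2) and 2 lower (ADAMTSL3, and ADAMTS3 with an interval of -2.33 to 0.10), beside 3.14% and 9.03%, and at HH25 none of 11 passed in either direction, beside 2.24% and 2.12%.

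**Figure D3:**
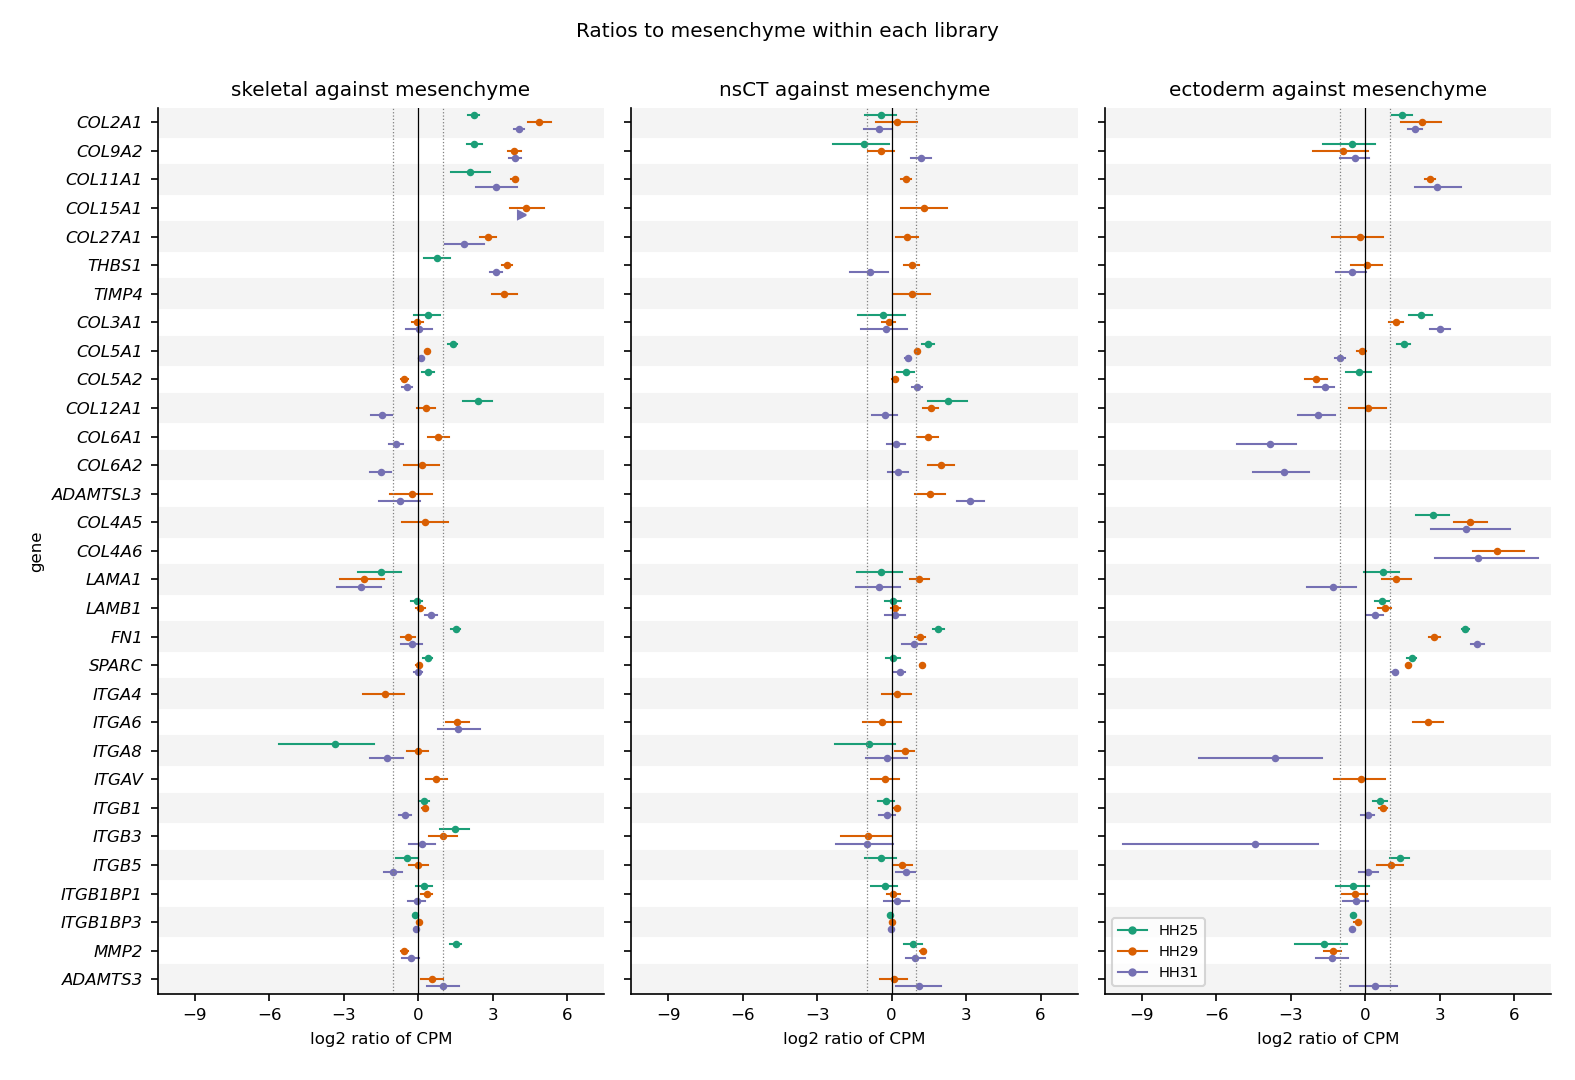
Log2 ratio of CPM in skeletal cells, nsCT and ectoderm to the mesenchyme of the same library, for the members counted in each comparison; bars are exact 95% intervals, dotted lines the 2-fold marks, and the arrowhead a lower bound (COL15A1 at HH31). FN1 lies above 2 in ectoderm at each stage and COL2A1 above 2 in skeletal cells at each stage.

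Skin was the highest site of the type IV collagen chains COL4A5 and COL4A6 in each library, and of fibronectin at HH25 and HH31 (the plot of ratios to mesenchyme). COL4A5 and COL4A6 were at 78.2 and 60.7 CPM in HH29 skin against 4.18 and 1.53 CPM in mesenchyme, ratios of 18.7-fold and 39.6-fold with log2 replicates of 4.89, 3.46 and 4.16 for COL4A5 and 5.28, 5.16 and 5.62 for COL4A6. At HH31 skin held 24 of 36 COL4A5 UMIs and 20 of 30 COL4A6 UMIs of the library, and the log2 ratios were 4.08 (2.66 to 5.83) and 4.56 (2.8 to 6.95), the mesenchyme holding 5 and 3 UMIs. At HH25 COL4A5 was 6.63-fold higher in ectoderm, from 47.7 against 7.196 CPM. Muscle was the second site of both chains at HH29, at 21.7 and 17.3 CPM. COL4A1, a type IV chain outside the 31 genes, was not higher in HH29 ectoderm, at 35.1 against 34.4 CPM in mesenchyme, and stood at 1023 CPM in endothelium and 925 CPM in smooth muscle.

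FN1, fibronectin, which binds integrins and collagen alike, stood at 1334 CPM in HH25 ectoderm against 81.2 CPM in mesenchyme, at 392 against 56.8 CPM at HH29 and at 769 against 33.6 CPM at HH31. The log2 ratios were 4.04 (3.89 to 4.18), 2.79 (2.57 to 3.01) and 4.52 (4.25 to 4.80). A FN1 UMI was found in 90.7% of HH25 skin cells, in 14.97% of mesenchyme cells and in 10.8% of blood cells, at median depths of 2097.5, 2081 and 1677 UMIs, and in 70.8%, 7.496% and 7.43% after thinning to 1000 UMIs. SPARC was higher in ectoderm as well, by 3.68-fold, 3.34-fold and 2.26-fold, and COL3A1 by 4.75-fold, 2.35-fold and 8.06-fold. MMP2 was lower at each stage, by 3.21-fold, 2.48-fold and 2.49-fold, and COL5A2 by 3.90-fold and 3.10-fold at HH29 and HH31.

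The laminin chains among the members did not all follow. Of the chains outside them, LAMB4 was higher in ectoderm than in mesenchyme, with log2 ratios of 8.42 at HH29 and 6.95 at HH31. LAMA4 was lower at HH29 (-2.24). LAMB1, a beta chain shared by several laminins, was under 2-fold in the ectoderm at each stage, with HH29 levels of 186 CPM in skin, 317 CPM in smooth muscle and 254 CPM in endothelium against 108 CPM in mesenchyme. LAMA1, an alpha chain of embryonic laminin, was higher in ectoderm at HH29 by 1.26 on the log2 scale (replicates 1.43, 0.84 and 1.44) but 2.45-fold lower at HH31, where 11 UMIs were counted in skin. COL5A1 was 2.95-fold higher in ectoderm at HH25 and 2.02-fold lower at HH31. In all 7 of 15, 10 of 22 and 7 of 24 counted members were at least 2-fold higher in ectoderm and 1, 2 and 9 lower. The shares of all genes were 6.53%, 8.11% and 5.29% higher and 9.69%, 8.08% and 16.8% lower, and the median log2 ratio was 0.71, 0.74 and -0.39 over the counted members against -0.20, -0.08 and -0.36 over all genes.

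Within the HH25 ectoderm, the apical ridge (24 cells) could be compared with skin for 5 members only. FN1 was at 508 CPM in the ridge and 1419 CPM in skin, 2.79-fold lower in the ridge, and COL5A1 was 3.02-fold lower on 5 UMIs, the 2 members at least 2-fold lower beside 7.22% of all genes, with none higher beside 5.11%. SPARC was at 526 and 494 CPM. COL5A2 had its highest HH25 level in the ridge, 245 CPM from 14 UMIs against 38.1 CPM in skin.

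The integrins divided by chain. ITGB1, the beta chain that most matrix integrins share, was found in each sub-cluster. At HH29 it was highest in smooth muscle (1135 CPM, replicates 1133, 1170 and 1056) and endothelium (925 CPM, replicates 850, 1286 and 743), against 318 CPM in mesenchyme. In the 10X libraries it ran from 70.1 to 196 CPM at HH25 and from 86.4 to 146 CPM at HH31. ITGA6, an alpha chain of laminin receptors, was higher than in mesenchyme in endothelium, muscle and skin at HH29, by 7.70-fold, 6.50-fold and 5.78-fold, and in early chondrocytes by 4.79-fold, with 24, 28, 40 and 51 UMIs. ITGA4, which binds fibronectin, peaked in HH29 smooth muscle at 129 CPM against 12.1 CPM in mesenchyme (24 UMIs, replicates 122, 111 and 180 CPM). ITGB5, a partner of ITGAV, was at 393 CPM in the 22 leukocytes of HH29 (30 UMIs, interval 265 to 561) and at most 52.7 CPM elsewhere in that library. ITGAV itself had 7 UMIs in leukocytes (91.7 CPM) and 14 in smooth muscle (75.3 CPM), and the intervals of these levels overlapped.

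ITGA8, the alpha chain of a receptor for nephronectin and fibronectin, was lower in cartilage than in mesenchyme at HH25 and HH31 but not at HH29. At HH25 it was 10.1-fold lower in chondrocytes (3 UMIs, interval of the log2 ratio -5.62 to -1.76) than in mesenchyme. It had no UMI in the HH25 ectoderm, where too few were expected for it to be counted. At HH29 it was at 22.5 CPM in skeletal cells and 22.7 CPM in mesenchyme (log2 -0.01, interval -0.43 to 0.39), and its 3 UMIs in skin were too few to be counted. At HH31 skeletal cells were 2.38-fold below mesenchyme, with 4.19 CPM in late and 12.3 CPM in early chondrocytes, the latter under the 2-fold mark. It stood there at 73.9 CPM in distal mesenchyme and 72.1 CPM in interdigit sub-cluster 4 against 22.3 CPM in mesenchyme and 1.81 CPM in skin. ITGB3, a beta chain that pairs with ITGAV, was 2.77-fold higher in HH25 chondrocytes than in mesenchyme and was at 1 UMI in HH31 skin, 21.5-fold below mesenchyme with an interval of the log2 ratio from -9.75 to -1.91.

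In smooth muscle and endothelium of HH29 ITGB1 and LAMB1 were at least 2-fold above mesenchyme, whereas muscle had less LAMB1 than mesenchyme and ITGB1 at 284 CPM. The fibrillar collagen chains COL3A1, COL5A1 and COL5A2 were at least 2-fold lower than in mesenchyme in endothelium and muscle, and COL11A1 in endothelium only. In smooth muscle 6 of 14 counted members were at least 2-fold above mesenchyme (FN1, ITGA4, COL6A1, COL12A1, ITGB1 and LAMB1) and 1, MMP2, was lower, beside 6.97% and 5.79% of all genes. FN1 was 13.4-fold higher there, at 764 CPM with replicates of 837, 713 and 773 CPM. In endothelium 3 of 12 were higher (ITGA6, ITGB1 and LAMB1) and 6 lower, beside 10.7% and 9.13%, the lowest being COL5A2 at 15.5-fold below mesenchyme. In muscle only ITGA6 of 13 was higher and 4 were lower (COL5A2, COL3A1, COL5A1 and LAMB1), beside 4.40% and 6.91%. HH25 muscle had no member past 2-fold among 8 counted, beside 3.41% and 3.11%. These populations are small, with 31, 63 and 105 cells at HH29.

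**Figure D4:**
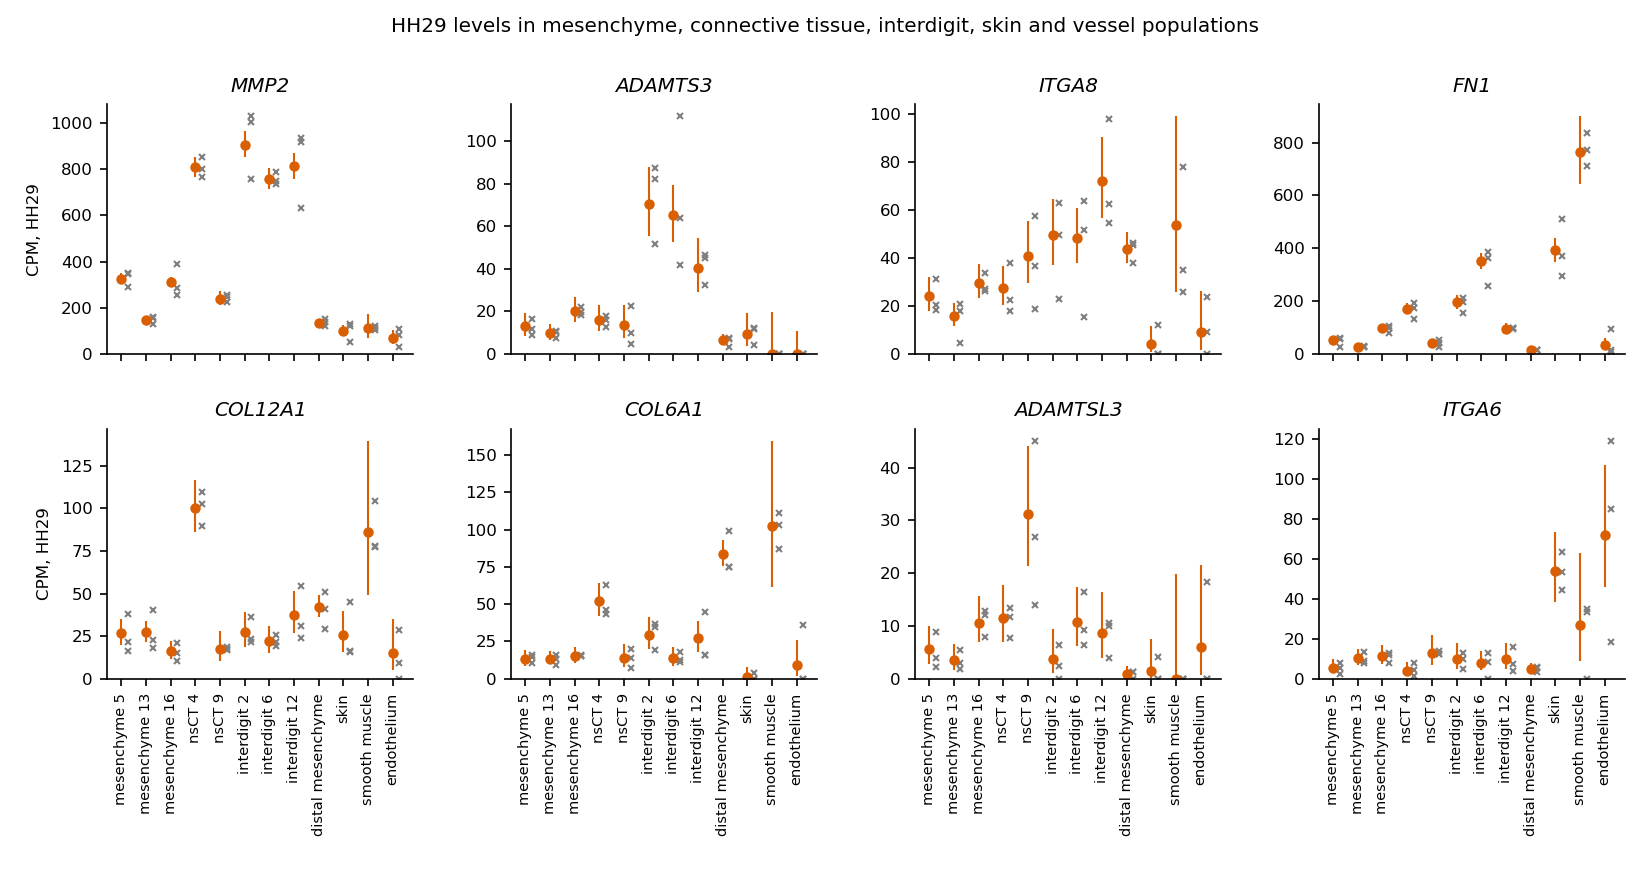
CPM of 8 genes at HH29 in mesenchyme, nsCT, interdigit, distal mesenchyme, skin and vessel sub-clusters; points are the pooled library with exact 95% Poisson intervals and grey crosses its 3 technical replicates. MMP2 lies between 757 and 905 CPM in the interdigit sub-clusters and at 806 CPM in nsCT sub-cluster 4, above the mesenchyme sub-clusters.

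The gelatinase MMP2 had its highest level in an interdigit sub-cluster, the tissue between the digits, at HH29 and HH31. MMP2 was at 905, 757 and 812 CPM in the interdigit sub-clusters 2, 6 and 12 of HH29 and at 806 CPM in nsCT sub-cluster 4, against 250.4 CPM in mesenchyme (the plot of HH29 levels outside the skeleton). The interdigit ratio was 3.27-fold, with replicates of 1.71, 1.67 and 1.80 on the log2 scale, and at HH31 it was 3.52-fold (log2 1.81, interval 1.57 to 2.06). The HH31 sub-clusters differed, with 243 CPM in interdigit 4 and 115 CPM in interdigit 10, the latter beside 127 CPM in distal mesenchyme with overlapping intervals. ADAMTS3, a protease that trims the amino-terminal propeptide of fibrillar procollagen, was 4.20-fold higher in the HH29 interdigit with replicates of 1.58, 2.01 and 2.90, and higher by a log2 ratio of 1.0 (interval 0.32 to 1.68) at HH31, just under the mark. At HH25, where no sub-cluster is called interdigit, MMP2 peaked in chondrocytes at 135 CPM against 47.5 CPM in mesenchyme, 59.1 CPM in blood and 86.9 CPM in nsCT.

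FN1, ITGA8, THBS1 and COL27A1 completed the HH29 interdigit list, at 4.07-fold, 2.44-fold, 2.11-fold and 2.05-fold. FN1 was uneven between the interdigit sub-clusters, at 195.5, 351 and 96.25 CPM in 2, 6 and 12. In all 6 of 30 counted members were at least 2-fold higher and none lower, beside 5.68% and 4.01% of all genes. At HH31 2 of 23 were higher (MMP2 and ITGA8) and COL6A2 was lower, at 20.96 against 70.2 CPM, beside 3.12% and 10.0%. Haemoglobin transcripts stood at 7470 CPM in interdigit sub-cluster 2 and between 53.8 and 490 CPM in the other sub-clusters of HH29. The interdigit ratios past 2-fold, higher and lower summed over both stages, numbered 9, and each stayed past 2-fold without the cells of at least 1% haemoglobin. The HH29 ratios pool sub-clusters 2, 6 and 12, and sub-cluster 2 was not set apart. The share of all genes under that setting is not given. The part of cell-free transcripts in the cells kept was not tested.

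The HH31 and HH25 libraries share a platform, and populations of the same name can be set side by side across them, with stage and dissection changing together. The mesenchyme name passed for 2 of 4 markers at HH25 and 0 of 4 at HH31, and other markers moved with it: from HH25 to HH31 the 4 distal markers summed to 904.7 and 2097 CPM in mesenchyme, the 5 nsCT markers to 1082 and 1711 CPM and the 3 haemoglobin genes to 252.6 and 920.9 CPM, none of them at 0. Their part in the results was not tested. In mesenchyme 11 of 27 counted members were at least 2-fold higher at HH31 and 3 lower, beside 5.99% and 4.02% of all genes, and the median of the members was 0.70 against -0.05. Type VI collagen led: COL6A2 stood at 2.19 CPM at HH25 and 70.2 CPM at HH31 and COL6A1 at 5.01 and 90.9 CPM, ratios of 32-fold and 18.2-fold. COL12A1 was 11.3-fold and COL5A1 6.0-fold higher at HH31. COL6A1 and COL6A2 were also higher in distal mesenchyme (5.56-fold and 7.88-fold), in nsCT (8.34-fold and 13.5-fold) and in early chondrocytes, by 21.7-fold for COL6A1 and at least 18.4-fold for COL6A2, which had no UMI in HH25 chondrocytes. The HH25 side of these ratios rests on few UMIs, with 76 of COL6A1 and 35 of COL6A2 in the whole library. In HH25 distal mesenchyme COL6A1 stood at 27.67 CPM (interval 13.81 to 49.51) and COL6A2 at 15.09 CPM (5.539 to 32.85). In ectoderm both had no UMI at HH25 and 7 and 8 at HH31, too few to be counted.

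**Figure D5:**
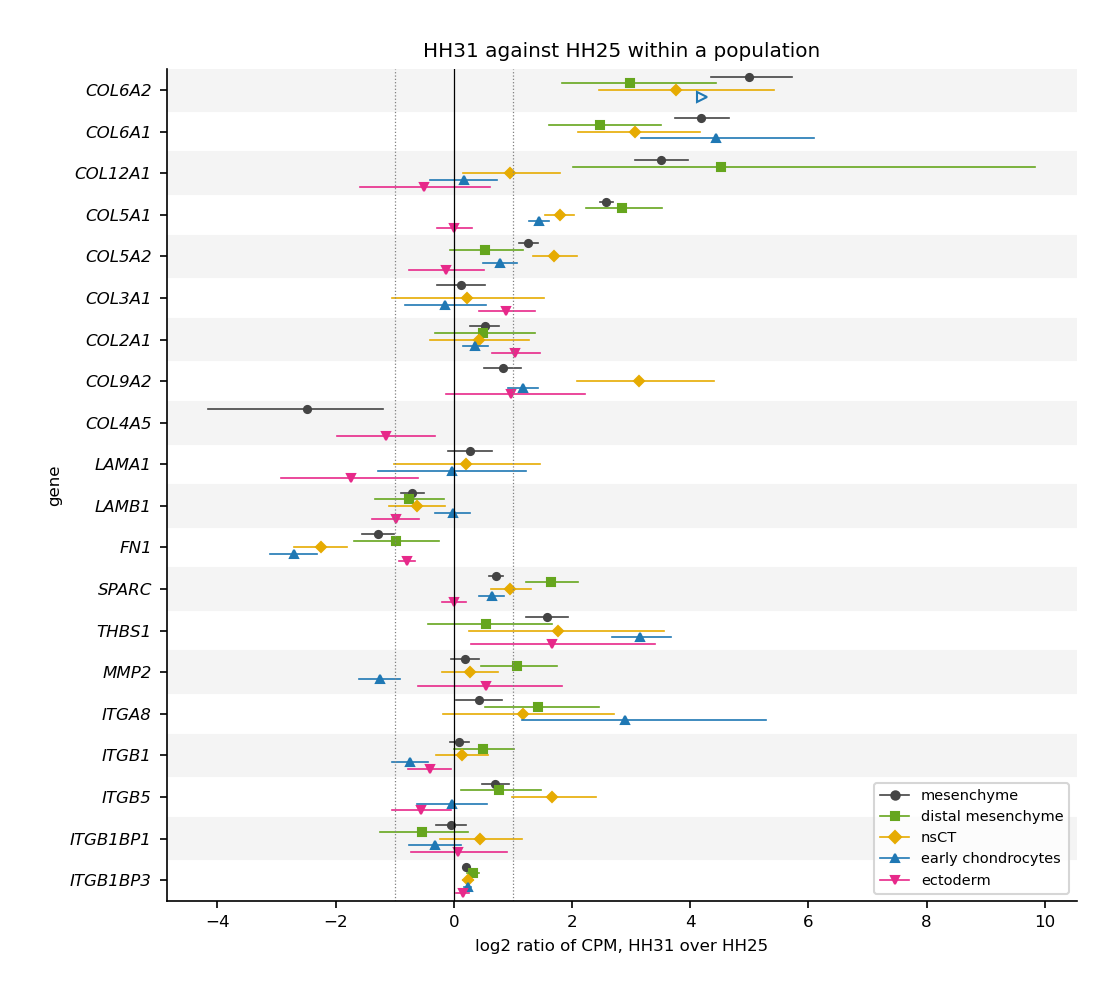
Log2 ratio of CPM at HH31 over HH25 within 5 populations for 20 members; bars are exact 95% intervals, dotted lines the 2-fold marks, the open arrowhead a lower bound (COL6A2 in early chondrocytes), and a missing symbol a gene under the count limit. COL6A1 and COL6A2 lie right of 2 wherever they were counted, while FN1 lies left of 0 in each population.

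FN1 was lower at HH31 by 2.42-fold in mesenchyme, 6.48-fold in early chondrocytes and 4.74-fold in nsCT, and by less than 2-fold in ectoderm (log2 -0.79, interval -0.93 to -0.65) and distal mesenchyme (-0.98, -1.68 to -0.25). COL4A5 and COL4A6 were lower in mesenchyme, by 5.62-fold and 7.19-fold on 69 and 53 UMIs at HH25 and 5 and 3 at HH31, with log2 intervals of -4.16 to -1.2 and -5.17 to -1.22. Early chondrocytes also had less MMP2 (2.39-fold) and more THBS1 (8.90-fold), ADAMTS3 (8.71-fold) and ITGA8 (7.44-fold, log2 interval 1.15 to 5.28, 3 UMIs at HH25) at HH31. In nsCT COL9A2, COL6A1 and ADAMTSL3 were 8.82-fold, 8.34-fold and 7.68-fold higher. The counts at least 2-fold higher and lower were 9 and 2 of 26 in early chondrocytes (5.94% and 8.33% of all genes), 10 and 1 of 21 in nsCT (6.16% and 10.7%), 7 and 0 of 16 in distal mesenchyme (4.66% and 16.7%) and 3 and 2 of 19 in ectoderm (1.90% and 8.40%). COL5A1 was higher in the 4 mesoderm populations and level in ectoderm (log2 0.01, interval -0.28 to 0.31).

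Some members varied together over sub-clusters. Pearson's r of log2(CPM + 10) is given as a description over 8, 18 and 11 sub-clusters that share a library and differ in depth, for members with at least 100 UMIs. COL4A5 and COL4A6 had r of 0.93 at HH29 and COL6A1 and COL6A2 0.89 and 0.88 at HH29 and HH31. COL4A5 with COL4A6, COL6A1 with COL6A2 and COL3A1 with COL5A2 are neighbours in the gene order of RefSeq (assembly GRCg7b), but the last pair had r of 0.40, 0.61 and -0.55. COL5A1 and COL5A2, chains of one trimer, had r of -0.17, 0.87 and 0.83. COL2A1 and COL9A2 had r of 0.72, 0.83 and 0.86. FN1 and SPARC had r of 0.85, 0.70 and 0.74, and the member nearest to MMP2 was ITGB3 at HH25 (0.88), ADAMTS3 at HH29 (0.80) and ITGA8 at HH31 (0.88).

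The family symbols also caught 3 genes that begin with an integrin or ADAMTS symbol but are neither integrin chains nor ADAMTS proteases. ADAMTSL3 is described above. ITGB1BP1, which binds the cytoplasmic tail of the beta1 chain, lay within 2-fold of mesenchyme in each comparison in which it was counted. ITGB1BP3, whose human namesake is also known as a nicotinamide riboside kinase, was the most counted member, with 35157, 22255 and 38956 UMIs. Over the populations set against mesenchyme it was nearly even, with log2 ratios from -0.53 in HH31 ectoderm to 0.59 in HH29 endothelium. Its extremes over sub-clusters included 1507 CPM in the HH25 apical ridge and 1415 CPM in HH29 leukocytes, beside sub-cluster medians of 2504 and 884.9 CPM. It was lower in ectoderm at each stage (-0.48, -0.30 and -0.53) and highest in muscle at HH25 (3695 CPM).

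Other matrix genes were followed in lists set by function. Of 27 genes of collagen processing 12 could be named in the tables. At HH29 7 of 12 were at least 2-fold higher in skeletal cells than in mesenchyme and none lower, beside 6.96% and 4.81% of all genes, among them FKBP14, P4HA2, PLOD2, CRTAP and SERPINH1, enzymes and chaperones of procollagen folding, with log2 ratios of 2.19, 1.95, 1.69, 1.69 and 1.56. At HH31 1 of 11 was higher over the pooled skeletal cells, PLOD2, and 0 lower, beside 4.25% and 11% of all genes. At HH25 0 of 11 were higher and 1, P4HA3, was lower, beside 3.87% and 7.11%. Of the 999 skeletal cells of HH31, 646 were early chondrocytes. Against mesenchyme, late chondrocytes of HH31 had 5 of 11 higher and 1 lower, beside 5.19% and 15.3% of all genes. Early chondrocytes of HH31 had 0 of 10 higher, beside 3.39% of all genes. At HH29, by contrast, early chondrocytes had 6 of 12 higher and 0 lower, beside 5.61% and 6.05% of all genes. Late chondrocytes of HH29 had 8 of 12 higher and 1 lower, beside 6.65% and 5.13%. In late against early chondrocytes of HH31 P4HA2 and PLOD2 were higher (1.97 and 1.55) and P4HA3 was lower (-1.73). Of 46 other matrix and receptor genes 23 could be named, and 6 of 17, 7 of 20 and 4 of 17 were higher in skeletal cells at HH25, HH29 and HH31 and 1, 0 and 3 lower, beside 3.87%, 6.96% and 4.25% of all genes higher and 7.11%, 4.81% and 11% lower. The proteoglycan VCAN was among the higher ones each time (1.39, 1.64 and 1.36). The 17 family symbols left out held larger contrasts, such as COL9A1 in skeletal cells (log2 4.98, 5.52 and 5.8) and COL17A1, a hemidesmosome collagen, in ectoderm (7.09, 7.5 and 7.93).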

How the data were processed

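The authors deposited UMI counts per cell and gene with a fine and a broad cluster number for each cell. Per the methods and the submitters' processing notes, Cell Ranger 2 (10X libraries) or the Drop-seq pipeline mapped the reads to the Ensembl chicken genome, and cells were clustered in Seurat. The counts were used as deposited, in cells passing the study's limits (at most 4 times the mean and at least 20% of the median UMI count, at most 10% mitochondrial UMIs over 10 named genes). No doublet caller was run, and doublets were not assessed. The stated limit on ribosomal UMIs was not applied here.

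UMIs were summed per population and library and scaled to CPM in Python 3.11.15 with numpy 2.4.6, pandas 2.3.3 and scipy 1.17.1, and drawn with matplotlib 3.10.9. Ratios carry exact 95% Clopper-Pearson intervals of the split of UMIs, and levels exact Poisson intervals. Genes with at least 10 expected UMIs in the smaller population were counted, a difference was called at 2-fold, and a population at 0 was given a floor of 3 UMIs summed over it. A member can pass the count limit through the population where it is high. Likeness used log2(CPM + 10). The scripts were tested on simulated data. Gene names came from the study's supplementary tables, of which 10 module sheets, not the full set, were held. The authors' own fold changes and p-values were not used.

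The 31 members and the lists were chosen with earlier results of these data known, and all members are described. Apical ridge against skin, late and early chondrocytes against mesenchyme, and the comparison of the nsCT sub-clusters were added after the data were seen.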

Additional observations from a re-analysis of the deposited data

Results flagged for a closer look

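Members are given here when their ratio to mesenchyme lay on opposite sides in different libraries. With 1 library per stage the difference was not tested, and stage, dissection and platform change together. Values follow the order HH25, HH29, HH31. COL12A1 in skeletal cells had log2 ratios of 2.4, with an interval of 1.81 to 2.98, then 0.31 (-0.06 to 0.68), then -1.45 (-1.88 to -1.04). COL9A2 in nsCT gave -1.12 (-2.35 to -0.11), -0.43 (-0.97 to 0.08) and 1.19 (0.76 to 1.6). COL5A1 in ectoderm gave 1.56 (1.3 to 1.81), -0.15 (-0.33 to 0.02) and -1.01 (-1.2 to -0.83). LAMA1 in ectoderm gave 0.71 (-0.03 to 1.38), 1.26 (0.66 to 1.83) and -1.29 (-2.34 to -0.39).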

How the results depend on the processing

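Member ratios past 2-fold, higher and lower together, were summed over the comparisons of each kind, so that a gene can count more than once. Over all stages, they numbered 32 in skeletal cells, 18 in nsCT, 36 in ectoderm, 15 in distal mesenchyme and 9 in interdigit. There were 21 in vessel and muscle populations, 23 in late against early chondrocytes, 7 in joint and 48 between HH31 and HH25. The share of all genes past the mark under each setting is not given beside the counts that follow. A changed count is therefore not a result about the members. At 3-fold the counts were 21 for skeletal cells, 4 for nsCT, 7 for distal mesenchyme, 5 for interdigit, 13 for vessel and muscle and 9 for late against early chondrocytes. With cells thinned to 1000 UMIs they were 23 for ectoderm, 8 for vessel and muscle and 31 for HH31 against HH25. With at least 30 expected UMIs they were 23, 13 and 27 for these, and with at least 3 the vessel and muscle count was 44. Leaving out 1 technical replicate of HH29 gave 32 to 33 for skeletal cells, 18 for nsCT, 35 for ectoderm, 11 to 16 for distal mesenchyme, 7 to 9 for interdigit, 16 to 18 for vessel and muscle, 22 to 24 for late against early chondrocytes and 6 to 7 for joint. These 209 member ratios past 2-fold kept their direction under each alternative that covered them. They were picked for being past 2-fold and the alternatives reuse mostly the same cells, so that a kept direction is no test. Past 2-fold stayed 202 under TMM scaling, 189 after thinning and 142 of the 153 that the broad clusters covered. TMM scaling moved the median of all genes by up to 0.34 on the log2 scale (ectoderm at HH31). A mitochondrial limit over 12 genes, chosen after seeing the data, left 207 of the 209 past 2-fold. No paired analysis was possible because each stage is 1 library. Depth limits the small populations most: 10 expected UMIs left 5 members countable in the apical ridge and 12 in endothelium.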
